A study of Homo sapiens with 2 samples.

Results

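The genes described here encode ERBB receptors and proteins that carry their signal to RAS and RAF. The list named 8 genes, EGFR, ERBB2, ERBB3, NRAS, HRAS, BRAF, SOS1 and NF1, and was applied to 17687 named genes of a whole-transcript microarray. EGFR, ERBB3, HRAS, SOS1 and NF1, 5 of the 8, had a named probe set, 1 each. ERBB2, NRAS and BRAF were not analysed here. The arrays came from DLD-1, an established human colorectal cancer cell line of epithelial character. One culture received a negative control siRNA (siControl) and the other a single siRNA sequence against the transcription factor YY1 (siYY1), both at 5 nmol/L, and RNA was taken on day 3. The comparison asked which transcripts differ in level when YY1 is knocked down.

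ERBB receptors sit in the plasma membrane, pair when a ligand of the EGF family binds, and phosphorylate their own tails. Adaptor proteins dock there and bring the exchange factor SOS1, which loads RAS proteins such as HRAS with GTP. RAS bound to GTP recruits RAF kinases, which activate MEK and then ERK, and NF1 ends the signal by stimulating RAS to hydrolyse its GTP. The pathway drives growth of intestinal epithelium and is activated in many colorectal cancers.

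With 1 array in each group there is no replicate error and no test, and every difference is one between these 2 arrays, not between the conditions. All values are log2 expression, a scale inferred from their range of 2.51 to 17.9, after quantile normalization of the pair. Differences are siYY1 minus siControl in log2 units, so that 1 is a 2-fold difference. A gene was compared where it was protein coding and its higher value reached 7.50, the median of that value over all named genes, which left 8747. YY1 had 0 named probe sets, so the knockdown was not read here and the groups are as labelled. All 8 epithelial markers and 3 of 6 intestinal markers reached 7.50, against 1 of 8 fibroblast, 1 of 6 endothelial and 2 of 6 blood cell markers, a list that includes HBA1. The summed level of the epithelial markers was 18.3 on both arrays in log2. The summed level was 9.08 in siControl and 9.31 in siYY1 for fibroblast markers, 8.35 and 9.25 for endothelial and 9.22 and 10.3 for blood cell markers. The sum of the intestinal markers was lower in siYY1, at 13.9 in siControl and 13.5 in siYY1. The other 3 sums were higher in siYY1, as were SOS1, EGFR and NF1, and in the blood cell list HBA1 differed by 2.23 and CD14 by -0.72. In the endothelial list ENG, the 1 marker that reached 7.50, differed by 1.33. The dimmer endothelial markers differed by -0.10 (TEK) to 0.24 (VWF). The part of these markers in any result was not tested. In bulk RNA, fewer expressing cells and less RNA per cell cannot be told apart.

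SOS1, EGFR and NF1 were at least 2-fold higher on the siYY1 array, HRAS was 1.66-fold higher and ERBB3 was 1.27-fold lower. Of the 5 genes, 3 were thus past 2-fold upward and 0 downward, while among all genes compared 7.92% passed 2-fold upward and 9.37% downward. In the values as deposited these background shares were 6.13% and 12.2%, and the counts of 3 and 0 held. The median difference of the 5 was 1.23, beside -0.01 over all genes compared. A set of 5 genes cannot place the group among others, and no claim particular to it is made from these counts.

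**Figure D1:**
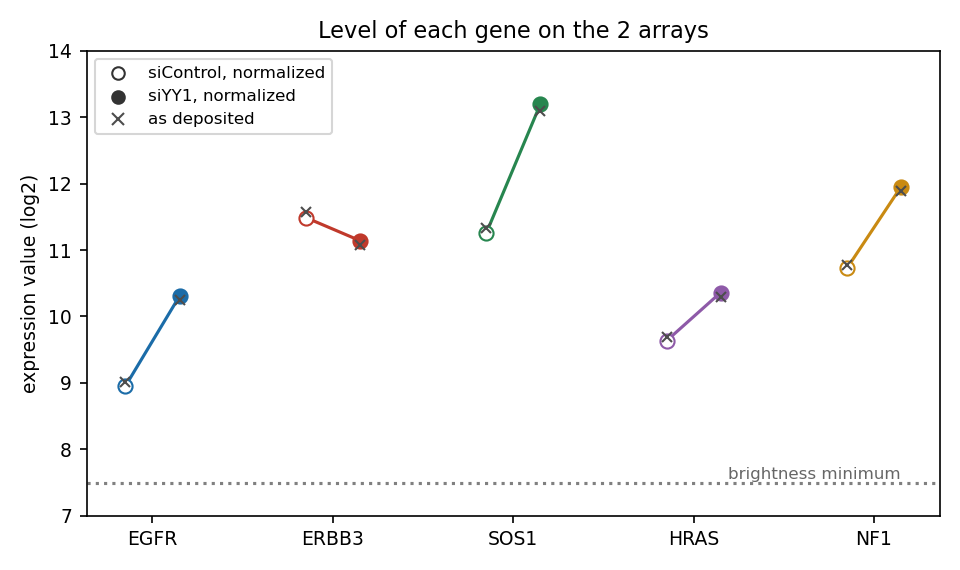
Log2 expression value (vertical axis) of each gene on the siControl array (open circles) and the siYY1 array (filled circles) after quantile normalization, with the deposited values as crosses and the brightness minimum of 7.50 as a dotted line. Lines join the 2 arrays, 1 value each and therefore without error bars: SOS1, EGFR, NF1 and HRAS slope upward and ERBB3 slopes downward.

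Among the receptors the measured pair differed. EGFR, the receptor of EGF and the founding member of the family, measured 8.95 in siControl and 10.31 in siYY1. Its difference of 1.36 was a 2.56-fold higher level, and 3.36% of the genes compared had a larger upward difference. ERBB3, whose kinase domain has little activity of its own and which signals through its partners, measured 11.49 in siControl and 11.14 in siYY1. Its difference of -0.35 lay within the bulk of the distribution, with 31.8% of genes lower still. The EGFR difference exceeded that of ERBB3 by 1.70, and by 1.70 to 1.73 over the scalings tried, so the change between the arrays was unequal for the receptors by 3.25-fold.

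SOS1, the exchange factor that activates RAS, had the largest difference of the 5. It measured 11.25 in siControl and 13.19 in siYY1, which is 1.94 higher or 3.84-fold, and ranked 65 from the highest among 8747 genes. Its paralog SOS2, which has the same activity on RAS, was on the opposite side, with 7.70 in siControl, 6.28 in siYY1 and a difference of -1.41. The paralogs thus differed in their change by 3.36, and by 3.12 in the deposited values. The siYY1 value of SOS2 was below the brightness minimum, which leaves the size of its difference uncertain.

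HRAS is the only RAS gene of the list with a value here. It measured 9.63 in siControl and 10.36 in siYY1, and the difference of 0.73 stayed under 2-fold, with 14.4% of genes higher. In RefSeq the HRAS gene overlaps LRRC56, which was at 9.05 and 9.25, a difference of 0.20. Whether LRRC56 transcripts add to the HRAS signal was not tested.

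NF1, the GTPase-activating protein that switches RAS off, measured 10.72 in siControl and 11.95 in siYY1. The difference of 1.23 was 2.34-fold, and 4.42% of genes were higher. RefSeq lists 12 numbered NF1 pseudogenes, near copies of parts of the gene, so some of the signal may be shared and the value is uncertain as that of NF1 alone. OMG, which lies inside an NF1 intron, was dim on both arrays at 3.65 and 3.49. On the siYY1 array the values of the RAS activator SOS1 and of the inactivator NF1, the latter with this uncertainty, were both higher. The other activator SOS2 was lower, at -1.41, with a siYY1 value below the brightness minimum.

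**Figure D2:**
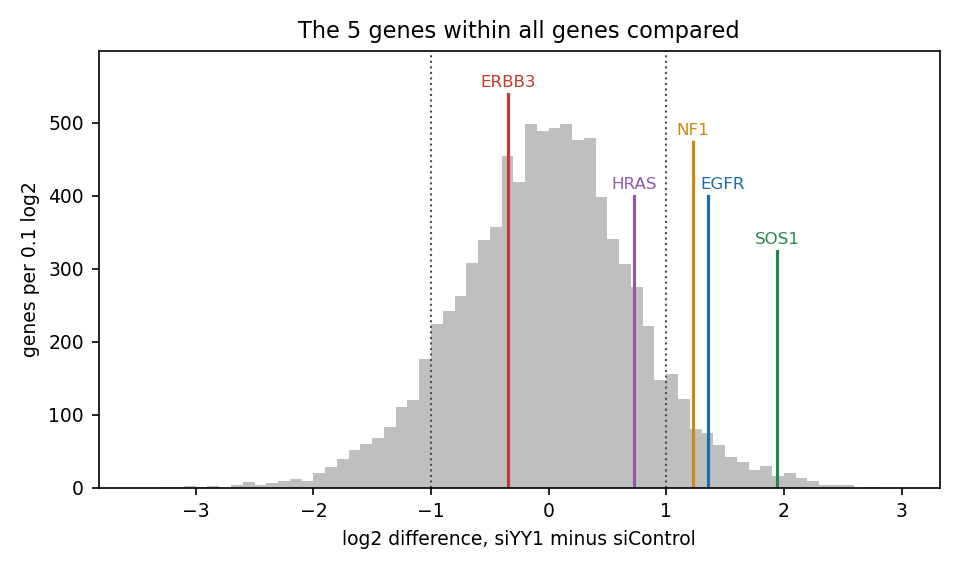
Number of genes per 0.1 log2 (vertical axis) by log2 difference, siYY1 minus siControl (horizontal axis), over the 8747 genes compared, with dotted lines at 2-fold and a coloured line for each of the 5 genes. SOS1 at 1.94 lies in the thin upper tail, EGFR at 1.36 and NF1 at 1.23 lie just past 2-fold, HRAS at 0.73 lies inside, and ERBB3 at -0.35 lies near the centre.

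The differences of the 5 genes kept their direction and their side of 2-fold in the values as deposited, with each array centred on its median and with loess on brightness. They ranged from 1.70 to 1.94 for SOS1, from 1.16 to 1.36 for EGFR, from 1.04 to 1.26 for NF1, from 0.53 to 0.73 for HRAS and from -0.58 to -0.35 for ERBB3. The lower ends came from the median centring, which moved the median over all genes compared from -0.01 to -0.20. For scale, 20 genes of the array had more than 1 probe set. Within 1 gene the probe sets disagreed by a median of 0.38 and by up to 0.98, computed after quantile normalization only. The difference of ERBB3 was smaller than that median gap after quantile normalization and loess but larger as deposited, at -0.50, and with median centring, at -0.58. Those of SOS1, EGFR and NF1 in each scaling were larger than the largest gap after quantile normalization, although probe sets of 1 gene are no replicate cultures.

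The genes with the most similar pair of values were taken as those at the smallest Euclidean distance over the 2 arrays, which with 2 points is a weak measure of likeness. For SOS1 these were SPTAN1, a spectrin, at a distance of 0.04 and PSME4, a proteasome activator, at 0.10. For EGFR they were KIAA1549 at 0.03 and the protein kinase C isoform PRKCE at 0.07, and for NF1 DESI2 and TMEM181, both at 0.04. For HRAS they were SDCCAG8 at 0.03 and the PI3-kinase regulatory subunit PIK3R4 at 0.04. ERBB3 was matched by ZFC3H1 at 0.0059 and BLZF1 at 0.02.

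The promoters are shown because YY1, the targeted factor, binds DNA near transcription starts. RefSeq windows of build GRCh38.p14, from 250 bases before to 50 after a start, matched EGFR with 2 starts, SOS1 with 2, HRAS and NF1, and did not match ERBB3. The core letters AANATGG, known from YY1 sites, and their complement CCATNTT were in 0 of these 6 windows, against 15.6% of all 35116 windows. Another string of the same length, ATGGCGG on either strand, was chosen after the sequences were seen. It shares only the letters ATGG with that core and does not contain it. It was in 1 of the 6 windows, that of NF1, against 5.55% of all windows. It began at base 18 counted from the start as base 1, in the stretch chr17:31094983-31095012 on the plus strand, with the matched letters in capitals.
NF1, around the match: ggtggggtgtcATGGCGGcgtctcggactg

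The 100 bases before a start are given for SOS1, EGFR, HRAS and NF1, on the strand of the gene, with the letters GGGCGG or CCGCCC in capitals. These letters, which proteins of the SP1 family can bind, were also chosen after the sequences were seen. They were in 3 of the 6 windows, 1 each of EGFR, HRAS and SOS1, against 45.0% of all windows.
SOS1, outer start, chr2:39124869-39124968, minus strand: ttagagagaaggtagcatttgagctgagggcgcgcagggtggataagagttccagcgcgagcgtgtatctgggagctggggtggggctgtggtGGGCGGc
SOS1, inner start, chr2:39121052-39121151, minus strand: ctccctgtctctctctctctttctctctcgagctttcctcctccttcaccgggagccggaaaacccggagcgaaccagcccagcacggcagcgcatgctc
EGFR, outer start, chr7:55018917-55019016, plus strand: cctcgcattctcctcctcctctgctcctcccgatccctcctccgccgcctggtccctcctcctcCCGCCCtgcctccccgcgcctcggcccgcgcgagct
HRAS, chr11:535577-535676, minus strand: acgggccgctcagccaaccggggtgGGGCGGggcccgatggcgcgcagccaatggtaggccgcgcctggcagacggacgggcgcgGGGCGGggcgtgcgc
NF1, chr17:31094877-31094976, plus strand: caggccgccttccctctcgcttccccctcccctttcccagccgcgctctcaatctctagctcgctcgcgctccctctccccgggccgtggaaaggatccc

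The windows differ in composition. G and C made up 78.0% of the HRAS window and 75.3% of the outer EGFR window but 42.0% of the inner EGFR window, against 51.0% and 65.7% of the SOS1 windows and 67.0% of the NF1 window, with a median of 58.7% over all windows. A match of letters describes the sequence and says nothing of binding in these cells, and the absence of a match says only that these letters are not in the window.

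The genes beside each locus, up to 3 named genes away on each side and bright enough to compare, were chosen by position after the values were seen and did not share a direction. SOS1 at 1.94 had neighbours that were lower on the side of lower coordinates, with the helicase gene DHX57 at -1.36 and MORN2 at -0.74. THUMPD2, on its other side, was at 0.16. Beyond EGFR lay LANCL2 at 0.04 and VOPP1 at 0.13, and on its other side COBL, an actin nucleator, at 0.61. One gene further the adaptor gene GRB10, whose product binds receptor tyrosine kinases, measured 9.19 in siControl and 7.95 in siYY1, with a difference of -1.24. Near NF1, COPRS was at 1.58, UTP6 at 0.19 and TEFM, a mitochondrial transcription factor, at -1.01. The siYY1 values of TEFM, 6.77, and of MORN2, 7.12, were below the brightness minimum. Around HRAS, PTDSS2 was at 0.39, RNH1 at 0.23, LRRC56 at 0.20, PHRF1 at -0.22 and RASSF7 at -0.57. ERBB3 lay between the ribosomal protein gene RPS26 at -0.08 and PA2G4, whose product binds ERBB3, at 0.06, with SUOX at -0.45 and RPL41 at 0.25 further out.

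Among the genes compared, the widest had higher differences than the rest. These genes were put in 10 groups of nearly equal size by their genomic span in RefSeq, group 10 being the widest. The median difference was between -0.10 and 0.0023 in groups 1 to 8, 0.13 in group 9 and 0.22 in group 10. In the values as deposited the median of group 10 was 0.11, while that of all genes compared was -0.13. With median centring these were 0.04 and -0.20, and without the brightness minimum the median of the widest group was 0.07. In group 10, 17.0% of genes passed 2-fold upward, against 4.0% in group 1. EGFR, with a span of 193 kb, and NF1, with 283 kb, fell in group 10, where 8.34% and 11.0% of genes had larger differences. SOS1, with 143 kb, fell in group 9, where 0.80% did. HRAS, with 3.33 kb, fell in group 1, where 10.2% of genes were higher, and ERBB3, with 23.4 kb, in group 4. The 3 genes past 2-fold were thus the 3 widest of the 5. The part of gene width in their differences was not tested.

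**Figure D3:**
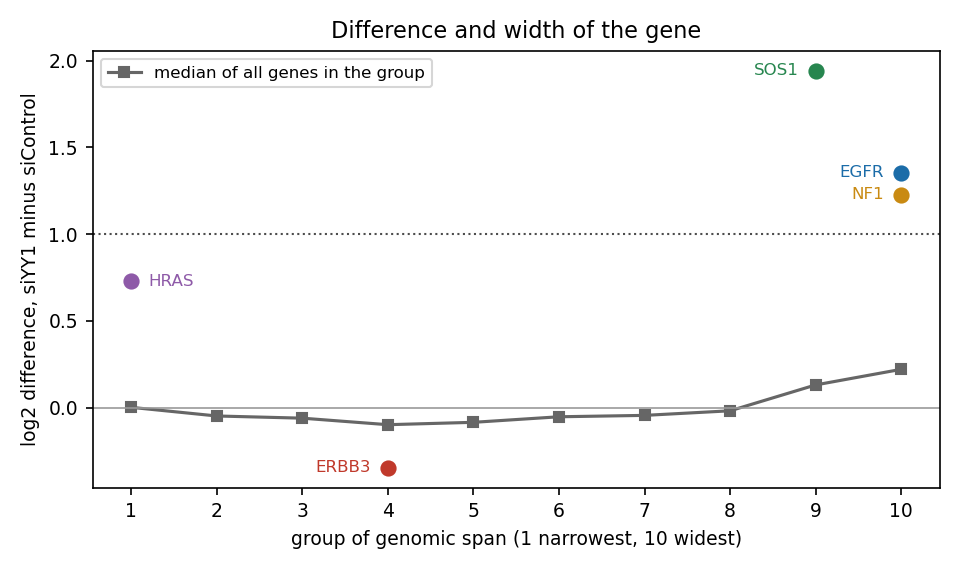
Log2 difference, siYY1 minus siControl (vertical axis), by group of genomic span (horizontal axis, 10 groups of nearly equal size from 1, the narrowest, to 10, the widest), with squares for the median of all genes compared in the group and a coloured point for each of the 5 genes. The medians lie near 0 up to group 8 and reach 0.22 in group 10, and SOS1, EGFR and NF1 lie above them in groups 9 and 10.

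The rest of the pathway was described through 12 lists by role, which together held 86 genes bright enough to be compared. Past 2-fold lay 9 of them (10.5%) upward and 3 (3.49%) downward, and the median was 0.17. Both shares are read beside 7.92% upward and 9.37% downward over all genes compared, of which 4332 of 8747 were above 0. With each array centred on its median, the median of the lists was -0.02 and that of all genes compared -0.20, against 0.17 and -0.01 here, so the sign of the lists' median followed the scaling while it lay above that of all genes in both.

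Ligands of the ERBB receptors were on the lower side where they could be compared. Of 10 named ligand genes 7 were too dim, and the other 3 were below 0 with a median of -0.76, none past 2-fold. TGFA, a ligand of EGFR, measured 11.00 in siControl and 10.09 in siYY1, and its difference of -0.91 became -1.05 in the deposited values. BTC was at -0.76 and EREG, which also binds EGFR, at -0.51. The siYY1 value of BTC, 7.28, was below the brightness minimum, and the median of the 3 is the BTC difference. EGFR itself was higher on the same array. The 4 genes of ligand shedding were at both sides of 0, with the largest difference 0.71 for RHBDF2, which helps the protease ADAM17 to the surface.

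Regulators of the receptors included 3 genes past 2-fold, all higher, of the 8 compared, where 7.92% of all genes compared were past 2-fold upward; with so few genes nothing is read from the count. ERBIN, a scaffold that binds ERBB2, was at 1.16, LRIG3 at 1.12 and CBL, a ubiquitin ligase that sends EGFR to degradation, at 1.10. All 3 were under 2-fold, between 0.94 and 0.95, with arrays centred on their medians. CBLB, a relative of CBL, was at -0.71, and ERRFI1, a feedback inhibitor of EGFR, at 0.19. Of 7 adaptor genes 6 were above 0 and none past 2-fold, with GRB2, the adaptor that carries SOS1 to the receptor, at 0.65 and the phosphatase gene PTPN11 at 0.43. The count above 0 was 4 to 6 over the scalings.

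On the RAS step, all 6 compared genes of other RAS GTPase-activating proteins and NF1 partners were above 0 in each of the 4 scalings. Of all genes compared, 4332 of 8747 were above 0 after quantile normalization, and with 6 genes nothing is read from the count. Another 4 of the 10 named genes were too dim: RASA3 at -0.38, RASA4 at -0.05, RASAL1 at 0.12 and SPRED3 at 0.06. The median of the 6 was 0.66. RASAL2, a GTPase-activating protein for RAS, measured 8.27 in siControl and 9.76 in siYY1, which differ by 1.49. LZTR1, an adaptor for RAS degradation, was at 0.83, and SPRED2 and SPRED1, which bring NF1 to the membrane, were at 0.63 and 0.51. The other exchange factors had 3 compared genes, among which only SOS2, given above, was past 2-fold. Among 6 other RAS-type GTPases the median was -0.04, and RIT1 was past 2-fold at -1.10, with a siYY1 value of 6.61 below the brightness minimum.

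In the list of RAS lipidation and traffic, 8 of 11 compared genes were below 0, with a median of -0.29. Over all genes compared, 4411 of 8747 were below 0. The list mixes genes that attach or process the lipid with LYPLA and ABHD17 genes, whose products remove palmitate. Of the latter, LYPLA2 at -0.29, ABHD17A at -0.63 and ABHD17B at -0.29 were lower, and LYPLA1 at 0.20 and ABHD17C at 0.71 higher. The count is therefore not one of lipid attachment alone. FNTB, the catalytic subunit of farnesyltransferase, measured 10.37 in siControl and 9.20 in siYY1, with a difference of -1.17. FNTA, its partner subunit, was at -0.95 and ICMT, which methylates the farnesylated end, at -0.84. In the deposited values FNTA was at -1.08, past 2-fold. SOS1 and HRAS were higher on the array where FNTB, FNTA and ICMT were lower, and any relation between them was not tested.

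Downstream of RAS, 10 genes of RAF, MEK, ERK and their scaffolds were compared, with a median of -0.28. MAP2K2, which encodes the kinase MEK2, measured 12.19 in siControl and 13.68 in siYY1, which differ by 1.49, and its paralog MAP2K1 was at 0.60. ARAF, a RAF kinase, was at -0.73. MAPK3, which encodes an ERK kinase, was at 0.42. Of the 7 genes of the YWHA family and SFN, whose products bind phosphorylated RAF, none was past 2-fold, and SFN had the largest difference at -0.80.

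In the PI3-kinase branch, which the same receptors feed, AKT1 and AKT2 lay on opposite sides. AKT1 measured 10.57 in siControl and 12.36 in siYY1, which differ by 1.79, and AKT2 measured 11.81 and 10.83, with a difference of -0.98, which was -1.11 in the deposited values. The median of the 6 compared genes was -0.39. Among 15 other receptor tyrosine kinases the median was 0.50, 11 were above 0 in each scaling, and 3 were past 2-fold upward, beside 7.92% of all genes compared: EPHB4 at 1.53, PTK7 at 1.40 and TYRO3 at 1.10. The TYRO3 value of 6.93 in siControl was below the brightness minimum. EGFR at 1.36 lay among these 3.

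**Figure D4:**
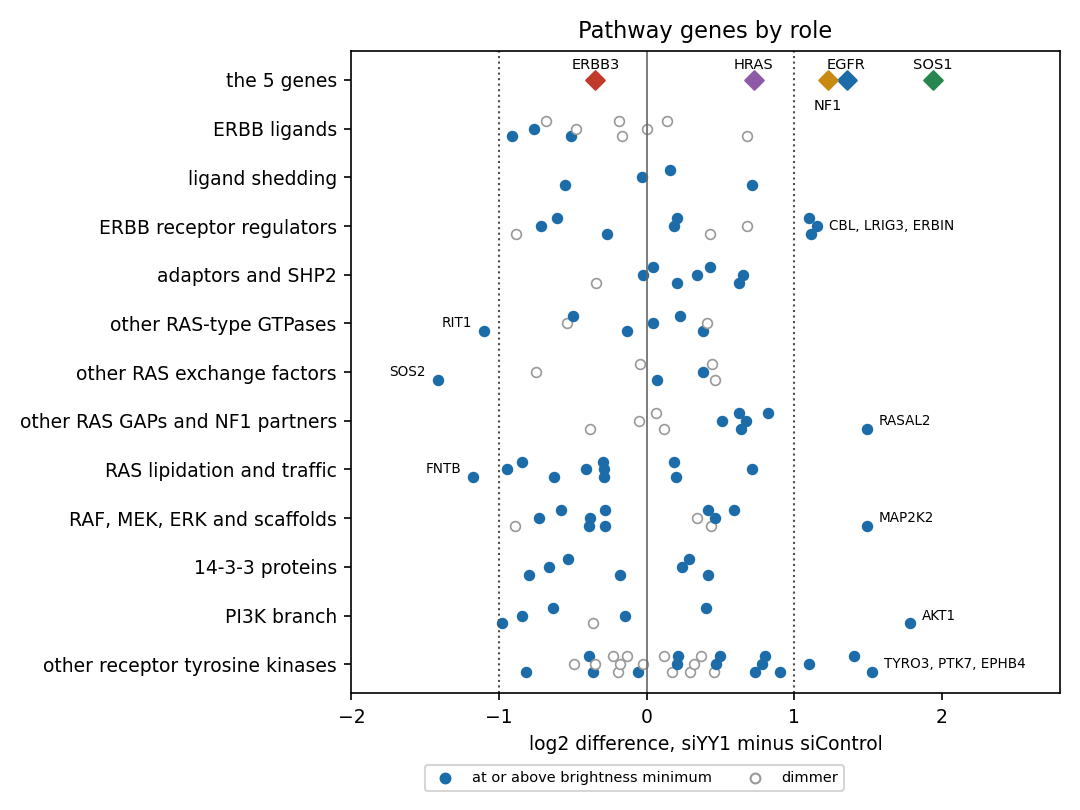
Log2 difference, siYY1 minus siControl (horizontal axis), of the 5 genes (diamonds, top) and of the pathway genes grouped by role, with filled circles for genes at or above the brightness minimum, open circles for dimmer genes and dotted lines at 2-fold. Names mark the compared genes past 2-fold: 9 lie on the right, among them AKT1 at 1.79, and SOS2, FNTB and RIT1 lie on the left.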

How the data were processed

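Total RNA from 2 cultures was converted to sense cDNA and labelled with biotin for a GeneChip array (per the labels' protocols). In the table the authors deposited there is 1 value per probe set and array for 21448 probe sets, taken here as log2 from their range. Software, background correction and normalization: not given in the sources used here. Between the arrays the 25th, 50th and 75th percentiles differed by 0.18, 0.07 and -0.13, so the pair was quantile normalized. A platform annotation table named 17709 probe sets, all matched by gene ID to RefSeq's GRCh38.p14 genes, and values of 1 gene were averaged. The other 3739 were left out.

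The members and lists were chosen with earlier results of these data known. Named were all members with a value, list genes past 2-fold (otherwise the largest difference) and the 2 genes nearest to each member. Neighbours and other list genes were named after their values were seen. With 1 array per group no test was made. The computation was tested on simulated data. Alternatives covered scaling, probe sets, brightness and fold thresholds. Medians by protein length were not run, since no protein lengths were used here; genomic span, added after seeing the data, took its place. The versions were Python 3.11.15, numpy 2.4.6, pandas 2.3.3, statsmodels 0.14.6 and matplotlib 3.10.9.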

Additional observations from a re-analysis of the deposited data

How the results depend on the processing

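Differences of the 5 genes kept direction and side of 2-fold as deposited, with median centring and with loess on brightness; each has 1 probe set, so the choice of probe set could not change them. At 3-fold, 1 of the 5, SOS1, was past the threshold. With a brightness minimum at the 75th percentile, 2 of the 5 were counted past 2-fold upward and 0 downward, in place of 3 and 0. EGFR, the dimmest of the 3, was then too dim to be compared. Pathway genes at least 2-fold lower, 3 in the main setting, numbered 6 as deposited and 9 with median centring. With a brightness minimum at the 75th percentile, 3 pathway genes were higher and 0 lower. At 1.5-fold these counts were 22 and 17, and at 3-fold 1 and 0. Over all genes, 693 were higher and 820 lower, against 440 and 1250 with median centring, 365 and 381 past the 75th percentile of brightness, 1699 and 1909 at 1.5-fold and 165 and 213 at 3-fold. Of the genes past 2-fold, 45.8% were higher, and 33.4% as deposited. The widest genes had a median of 0.11 as deposited, 0.04 with median centring and 0.07 without a brightness minimum. The promoter count of 0 became 1 with ATGGCGG. These thresholds admit fewer or more genes by construction, and median centring lowers every deposited difference by the same 0.07. The cause of the other shifts was not tested. No paired analysis was possible because each group has 1 array. The single array per group limits every value here.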
